A study of Homo sapiens with 15 samples.

Results

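Line 1 of the HUNK knockdown (KD1, 4 libraries) was set against control cells (CTL, 4 libraries), which are 8 of the 15 libraries of the series. The members were taken by the sample titles, and all 758 genes of a fixed expression panel were read in them. All cells were JIMT-1, an established human breast cancer line that is positive for HER2, in serum-containing DMEM, and total RNA was measured. The KD1 cells carried an shRNA against HUNK and grew with puromycin, an antibiotic commonly used to select for shRNA vectors. CTL is named only as the control, and the labels do not say whether it carried a vector or received puromycin. From the labels, loss of HUNK, puromycin and carrying a vector therefore cannot be told apart in any difference between KD1 and CTL. The labels do not say whether KD1 is a clone or a mixed population. HUNK itself is not on the panel, so the knockdown could not be checked in these data.

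HUNK is a serine/threonine kinase of the family related to AMPK. It was found through mammary tumours driven by Neu, the rodent form of HER2, and it has been linked in HER2-positive breast cancer cells to survival, to autophagy and to growth under HER2 inhibitors. HER2 is a receptor tyrosine kinase, encoded by ERBB2, that signals through the MAPK and PI3K pathways. The panel covers such pathways together with cell cycle, DNA repair, differentiation and immune genes.

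CTL libraries held between 1241234 and 1457370 recovered counts and KD1 libraries between 1456002 and 1543047, and 523 to 567 genes per library exceeded a linear value of 20. Libraries 1 and 2, and libraries 3 and 4, were close to repeats of each other within each group. Chi-square divided by its degrees of freedom was 1.15 to 1.54 for the counts of such libraries, where counting error alone gives about 1. Between the pairs this measure was 5.47 to 5.63 in CTL and 135 to 136 in KD1. KD2, the other HUNK shRNA line, shares the fit: its libraries 1 and 2 were as close (1.37), but its libraries 3 and 4 were not near-repeats (23.8). Each pair was averaged and counted as 1 replicate, which leaves n = 2 in each group. The labels do not say whether libraries came from separate cultures, so the p-values measure the spread between these pairs, which may be technical. On the deposited log2 scale the median gene was 0.43 higher in KD1 than in CTL, and on log2 of the linear values it was 0.27 higher. Differences below are given on a centred scale, on which the median gene differs by -0.01. Levels are the deposited log2 counts. ERBB2 had log2 levels of 11.94 to 12.01 in CTL and 12.61 to 12.89 in KD1, and GRB7, its neighbour in the HER2 amplicon, had 14.78 to 14.83 and 13.81 to 14.51. KRT7 and CD44, also looked for as high in JIMT-1, were above 20 in all libraries. Of the hormone receptor genes ESR1 and PGR, looked for as low, only ESR1 was above 20 in all CTL and all KD1 libraries. Their summed linear value was 119 to 155 in CTL and 174 to 276 in KD1. ESR1 had log2 levels of 6.42 to 6.81 in CTL and 7.22 to 7.97 in KD1. PGR had linear values of 12.6 to 30.5 in CTL and 17 to 25.3 in KD1. Of 5 T and NK cell markers on the panel, 1 was above 20 in all CTL and all KD1 libraries, as was 1 of 2 myeloid markers. In bulk RNA, fewer cells of a kind and less RNA per cell cannot be told apart.

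The comparison asks which panel genes differ in cells of this knockdown line. HEG1, MAML2, PDCD1LG2 and ADCY9 rose in KD1, by 4.09-fold, 4.06-fold, 2.51-fold and 2.09-fold relative to the median gene. No gene fell. A gene was said to have risen or fallen where it passed an adjusted p of 0.05 in limma, in the same direction, on the deposited and on the centred scale. By this rule 4 of 622 genes tested were higher (0.643%) and 0 were lower (0%). At an unadjusted p under 0.05 on both scales, 96 were higher and 11 lower, and edgeR on counts summed over the pairs also called 4 higher and 0 lower. When all libraries were counted separately, as though the near-repeats were independent, 141 genes (22.7%) were called higher and 32 (5.14%) lower. With the 3 libraries of JIMT-1 cells labelled as treated with HSL119 added to the fit, 77 (12.4%) were called higher and 7 (1.13%) lower. The centred scale alone gave 4 higher and 0 lower, and the deposited scale alone 136 higher and 4 lower. Counts that need both scales favour rises, since the deposited scale places the median gene 0.43 higher in KD1. On the centred scale 49.5% of the tested genes had the higher mean in KD1. By edgeR on separate libraries 142 were called higher and 136 lower. A rule of size, chosen after the values were seen and carrying no test, takes the genes whose KD1 pair means both lay beyond 2-fold of the CTL mean with no overlap between libraries. It holds 27 genes that were higher (4.34%) and 9 that were lower (1.45%). Of these, 27 and 3 met it on the deposited scale as well. Apart from the 4 genes that rose, the genes below are named by this rule or by their list after their values were seen.

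**Figure D1:**
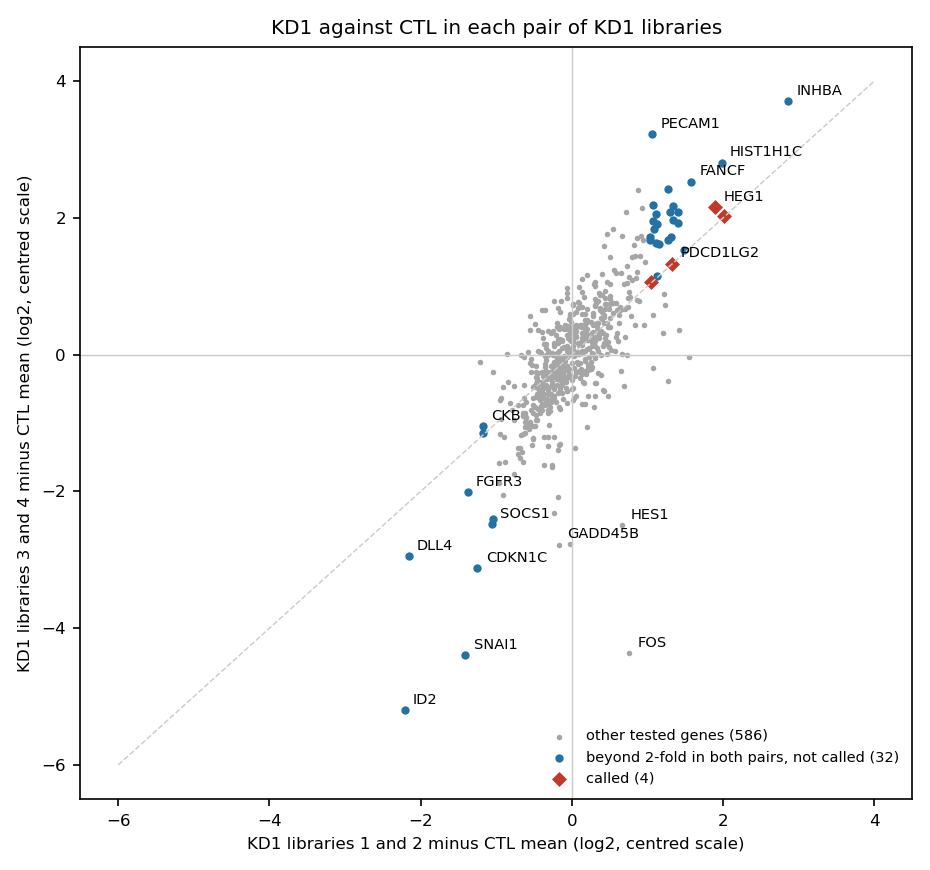
Each point is a tested gene. The horizontal axis gives the mean of KD1 libraries 1 and 2 minus the CTL mean, and the vertical axis the mean of KD1 libraries 3 and 4 minus the CTL mean, both as log2 differences on the centred scale, with a dashed line where they are equal. The 4 genes that rose lie on or near the line, while FOS, HES1 and GADD45B lie far below it, with differences in libraries 3 and 4 of -4.36, -2.49 and -2.78.

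HEG1 encodes a transmembrane protein that acts in cell junctions. Its log2 levels were 8.27, 8.32, 8.31 and 8.33 in CTL libraries 1 to 4 and 10.63, 10.59, 10.95 and 10.93 in KD1. The groups were more than 2 units apart, and the difference on the centred scale was 2.03 (SE 0.138, adjusted p = 0.0112 in limma). MAML2, a coactivator of Notch receptors, had 5.67, 5.67, 5.90 and 5.92 in CTL and 8.27, 8.13, 8.29 and 8.30 in KD1, a difference of 2.02 (SE 0.145, adjusted p = 0.0112 in limma). KD1 pairs were almost level in MAML2, at 2.01 and 2.03 above CTL. PDCD1LG2 encodes PD-L2, a ligand of the T cell checkpoint receptor PD-1. Its log2 levels were 6.99, 7.16, 7.25 and 6.93 in CTL and 8.87, 8.74, 8.89 and 8.87 in KD1, a difference of 1.33 (SE 0.142, adjusted p = 0.0453 in limma). ADCY9, an adenylyl cyclase that makes cyclic AMP, had 7.77, 7.79, 7.82 and 7.77 in CTL and 9.25, 9.22, 9.35 and 9.31 in KD1. Its difference was 1.06 (SE 0.118, adjusted p = 0.0453 in limma). In all 4 genes the 4 KD1 libraries lay above every CTL library. PDCD1LG2 and ADCY9 stood close to the threshold: without CTL replicate 4 their adjusted p in limma was 0.0514, only HEG1 and MAML2 then passing, and without CTL replicate 2 that of ADCY9 was 0.0577. Without KD2 replicate 1 or 3, which enter through the shared spread and the centring, both were at 0.0535 or 0.0754, and without KD2 replicate 4 there were 8 genes called higher. HEG1 and MAML2 kept their call under every alternative tried.

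**Figure D2:**
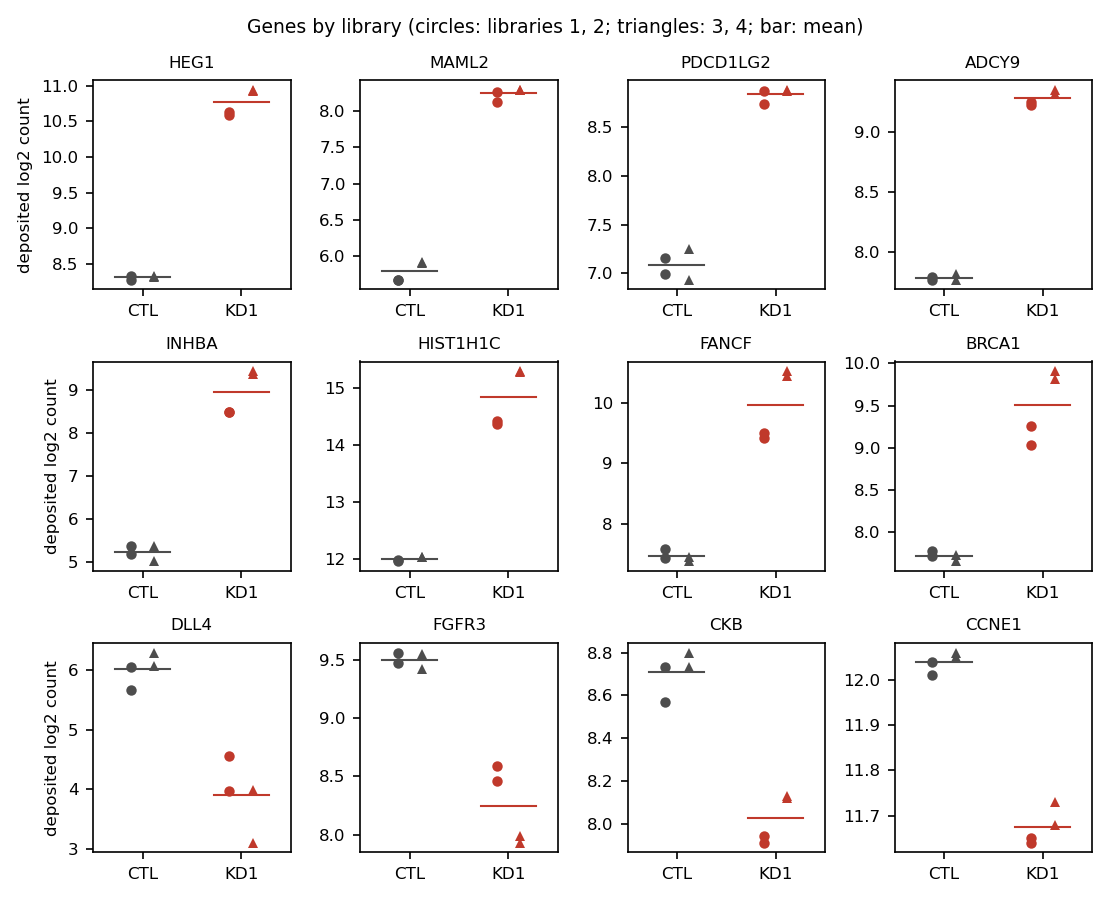
Deposited log2 counts of 12 genes in CTL and KD1, with circles for libraries 1 and 2, triangles for libraries 3 and 4 and a bar at the mean of the 4 libraries. Each panel has its own vertical axis, which does not start at 0. In the upper 8 panels every KD1 library lies above every CTL library, and in the lower 4 below.

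The promoter sequences of HEG1 and MAML2, the pair with the lowest adjusted p, and of INHBA, the gene with the largest positive difference, are shown because these genes were all higher in KD1. They are RefSeq sequences on GRCh38.p14, from 250 bases before to 50 bases after the start of the gene, each on the minus strand and written 5′ to 3′ of the gene. HEG1 lies at chr3:125055948-125056247, MAML2 at chr11:96343146-96343445 and INHBA at chr7:41703041-41703340. Capitals mark GGGCGG on either strand (the GC box read by SP1-type factors), TGANTCA (the AP-1 motif, the same on both strands) and TATAAA on either strand (the TATA box).
HEG1: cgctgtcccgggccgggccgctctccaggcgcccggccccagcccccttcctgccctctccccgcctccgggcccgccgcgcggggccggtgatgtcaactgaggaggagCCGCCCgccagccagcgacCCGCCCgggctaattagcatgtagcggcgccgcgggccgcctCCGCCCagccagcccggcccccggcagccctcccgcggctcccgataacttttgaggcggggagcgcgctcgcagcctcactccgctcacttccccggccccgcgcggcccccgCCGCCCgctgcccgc
MAML2: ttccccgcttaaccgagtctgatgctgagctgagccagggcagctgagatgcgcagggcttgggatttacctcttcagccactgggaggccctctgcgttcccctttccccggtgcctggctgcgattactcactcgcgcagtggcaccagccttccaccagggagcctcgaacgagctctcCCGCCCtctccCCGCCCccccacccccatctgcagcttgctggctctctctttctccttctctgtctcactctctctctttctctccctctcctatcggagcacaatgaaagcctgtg
INHBA: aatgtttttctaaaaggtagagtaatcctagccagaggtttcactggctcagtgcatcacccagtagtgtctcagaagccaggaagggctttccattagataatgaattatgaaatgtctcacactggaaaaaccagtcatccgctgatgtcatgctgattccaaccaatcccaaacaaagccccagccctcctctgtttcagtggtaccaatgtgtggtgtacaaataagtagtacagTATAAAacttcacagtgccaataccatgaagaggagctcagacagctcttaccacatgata
The HEG1 window held GGGCGG at 4 places and 42 CpG dinucleotides, and that of MAML2 held it at 2 places and 13 CpG. The INHBA window held TATAAA once, 1 CpG and no GGGCGG. None of the 3 held TGANTCA. Among 35116 promoter windows of the same length, 45% held GGGCGG, 11.5% TATAAA and 7.71% TGANTCA, and the median number of CpG was 14. The GC content was 79.7% in HEG1, 61.3% in MAML2 and 43.3% in INHBA, against a median of 58.7%.

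INHBA, whose protein forms activin A, a ligand of the TGF-beta family, had the largest positive difference. Its log2 levels were 5.38, 5.18, 5.01 and 5.38 in CTL and 8.50, 8.50, 9.45 and 9.39 in KD1. All KD1 libraries were more than 3 units above CTL, and libraries 3 and 4 were higher than 1 and 2. The difference was 3.29 (SE 0.405), and its adjusted p in limma was 0.0177 on the deposited scale and 0.0506 on the centred scale, which just missed the threshold. Among the 31 tested genes of TGF-beta, activin and BMP signalling, 11 were higher in all KD1 libraries than in every CTL library and 6 were lower. Over all tested genes such separation was seen for 24.6% upward and 27.5% downward on the centred scale. These shares are the background for the counts of separated genes in the lists below, which are also on the centred scale. On both scales 153 genes separated upward and 44 downward, against 153 and 171 on the centred scale alone. Most downward separations thus depend on the scale. The median difference of the TGF-beta, activin and BMP list was 0.20. Receptor genes among the higher ones were BMPR1A (1.16) for BMP ligands and TGFBR2 (0.64) for TGF-beta. SMURF2 (0.59), a ubiquitin ligase that removes these receptors, was higher too. The ligand TGFB1 (-0.77) and the divergent ligand GDF15 (-1.16) were lower. GDF15 had a KD1 mean linear value of 13.5, under the floor of 20. ID2, a target of BMP signalling and an inhibitor of differentiation factors, was lowest, at -3.71 (SE 1.24, adjusted p = 0.143 in limma). Its linear values were 110 and 134 in KD1 libraries 1 and 2, and 20.3 and 12.7 in libraries 3 and 4, near or under the floor of 20. None of the list passed the test on both scales.

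Histone genes stood higher together. HIST1H1C, a linker histone gene that this panel measures under an older symbol, had 11.95, 11.98, 12.03 and 12.03 in CTL and 14.41, 14.36, 15.29 and 15.28 in KD1. Both KD1 pairs lay above CTL, and the difference was 2.40 (SE 0.354, adjusted p = 0.0619 in limma on the centred scale and 0.0199 on the deposited scale). The core histone genes HIST1H3H (1.63), HIST1H2BH (1.51) and HIST3H2BB (1.18) were higher in all 4 KD1 libraries. All 3 tested genes of the histone list separated upward, with a median of 1.07 in libraries 1 and 2 and 2.19 in libraries 3 and 4, and 0 passed the test on both scales. HIST1H2BH was not on that list. Of 11 chromatin modifiers, 2 separated upward and 4 downward. NSD1, a histone H3 methyltransferase, had 6.94, 7.12, 6.97 and 6.81 in CTL and 8.73, 8.80, 9.37 and 9.35 in KD1, a difference of 1.67 (SE 0.351, adjusted p = 0.0736 in limma). The acetyltransferase EP300 was at 0.65 and the deacetylase HDAC5 at -1.48.

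DNA repair genes were higher in KD1 more often than lower. Of 22 tested, 12 separated upward and 5 downward, against 24.6% and 27.5% of all tested genes. The median difference was 0.29 on the centred and 0.73 on the deposited scale. With libraries counted separately 12 of 22 were called higher and 0 lower, against 22.7% and 5.14% of all tested genes. That count treats near-repeats as independent, and it needs both scales, which favours rises. With pairs averaged 0 passed. FANCF, of the Fanconi anaemia core complex, had 7.44, 7.59, 7.47 and 7.39 in CTL and 9.50, 9.42, 10.43 and 10.52 in KD1. That is a difference of 2.06 (SE 0.467, adjusted p = 0.0835 in limma). BRCA1 and BRCA2, which act in homologous recombination, differed by 1.35 (SE 0.279, adjusted p = 0.0736) and 1.59 (SE 0.45, adjusted p = 0.109) in limma. BRCA1 had 7.77, 7.71, 7.65 and 7.73 in CTL and 9.26, 9.03, 9.91 and 9.82 in KD1. The recombination genes XRCC2 (1.53) and XRCC3 (0.89) and the mismatch repair gene PMS2 (0.67) were on the same side. PARP2 (-0.88) and ATM (-0.63) were on the other. The list's median was 0.19 in libraries 1 and 2 and 0.51 in libraries 3 and 4.

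Cell cycle genes did not lie to 1 side on the centred scale. Of 34 tested mitotic genes 13 separated upward and 15 downward, with a median of -0.08. Of 19 G1/S and DNA synthesis genes 3 and 5 did so, with a median of 0.18. On the deposited scale the medians were 0.36 and 0.62. With libraries counted separately, 12 mitotic genes were called higher and 2 lower, and 4 and 2 of the G1/S list. With pairs averaged 0 passed the test on both scales. ASPM, of the spindle poles, had 9.55, 9.50, 9.56 and 9.63 in CTL and 11.26, 11.26, 12.10 and 12.12 in KD1, a difference of 1.69 (SE 0.347, adjusted p = 0.0736 in limma). The kinase MELK (1.11), the kinetochore gene CENPF (0.99) and the origin licensing gene CDC6 (0.81) were also higher. CCNE1, cyclin E1, had 12.04, 12.01, 12.05 and 12.06 in CTL and 11.64, 11.65, 11.68 and 11.73 in KD1. KD1 pairs were level in CCNE1, at -0.79 and -0.81, and the difference was -0.80 (SE 0.102), with an adjusted p in limma of 0.0506 on the centred and 0.0806 on the deposited scale. UBE2C (-0.82) and PTTG1 (-0.75), a ubiquitin-conjugating enzyme and securin of anaphase, were lower, as was the origin recognition gene ORC6 (-0.77).

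In the Notch pathway the ligand and the coactivator lay far apart. DLL4, a Notch ligand, had 6.05, 5.67, 6.07 and 6.29 in CTL and 4.55, 3.97, 3.10 and 3.98 in KD1. All KD1 libraries were below CTL, to a KD1 mean linear value of 15.9, under the floor of 20. The difference was -2.56 (SE 0.492), with an adjusted p in limma of 0.0392 on the deposited and 0.0736 on the centred scale. Of 16 tested Notch genes 5 separated upward and 6 downward. MAML2 alone of them passed the test. The list's median was -0.41 on the centred scale and 0.03 on the deposited scale, so its sign depends on the scale. The receptor NOTCH3 (-1.10) and the ligand JAG1 (-0.88) were lower and the gamma-secretase subunit APH1B (0.60) was higher.

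Receptor and MAPK genes were mixed. FGFR3, a fibroblast growth factor receptor, had 9.47, 9.56, 9.42 and 9.55 in CTL and 8.59, 8.46, 7.99 and 7.93 in KD1, with no overlap. Its difference was -1.70 (SE 0.329, adjusted p = 0.0736 in limma, and 0.0462 on the deposited scale). EFNA5, an ephrin ligand, had 5.19, 5.28, 5.21 and 5.41 in CTL and 7.08, 6.95, 7.91 and 7.93 in KD1, a difference of 1.75 (SE 0.369, adjusted p = 0.0736 in limma). The ephrin gene EFNA3 was lower (-1.06). Of 19 tested genes for FGF, ephrin, VEGF and related receptors and ligands, 7 separated upward and 5 downward. Among 7 ERBB genes, EGFR (0.78, SE 0.162, adjusted p = 0.0736 in limma) and ERBB2 (0.35, SE 0.123, adjusted p = 0.151) separated upward, and the adaptor genes GRB7 (-1.08) and GRB2 (-0.64) were lower. ERBB2 stood at 0.28 above CTL in libraries 1 and 2 and 0.43 in libraries 3 and 4. Of 12 tested MAPK genes 4 separated upward and 3 downward, among them the ERK phosphatase DUSP4 (1.38), the kinase MAP2K4 (1.14) and the feedback inhibitor SPRY2 (0.83), while SPRY4 was at -0.64. In the PI3K list 3 of 9 separated upward and 0 downward, among them the regulatory subunits PIK3R3 (1.21) and PIK3R1 (0.38). None of these genes passed the test on both scales.

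**Figure D3:**
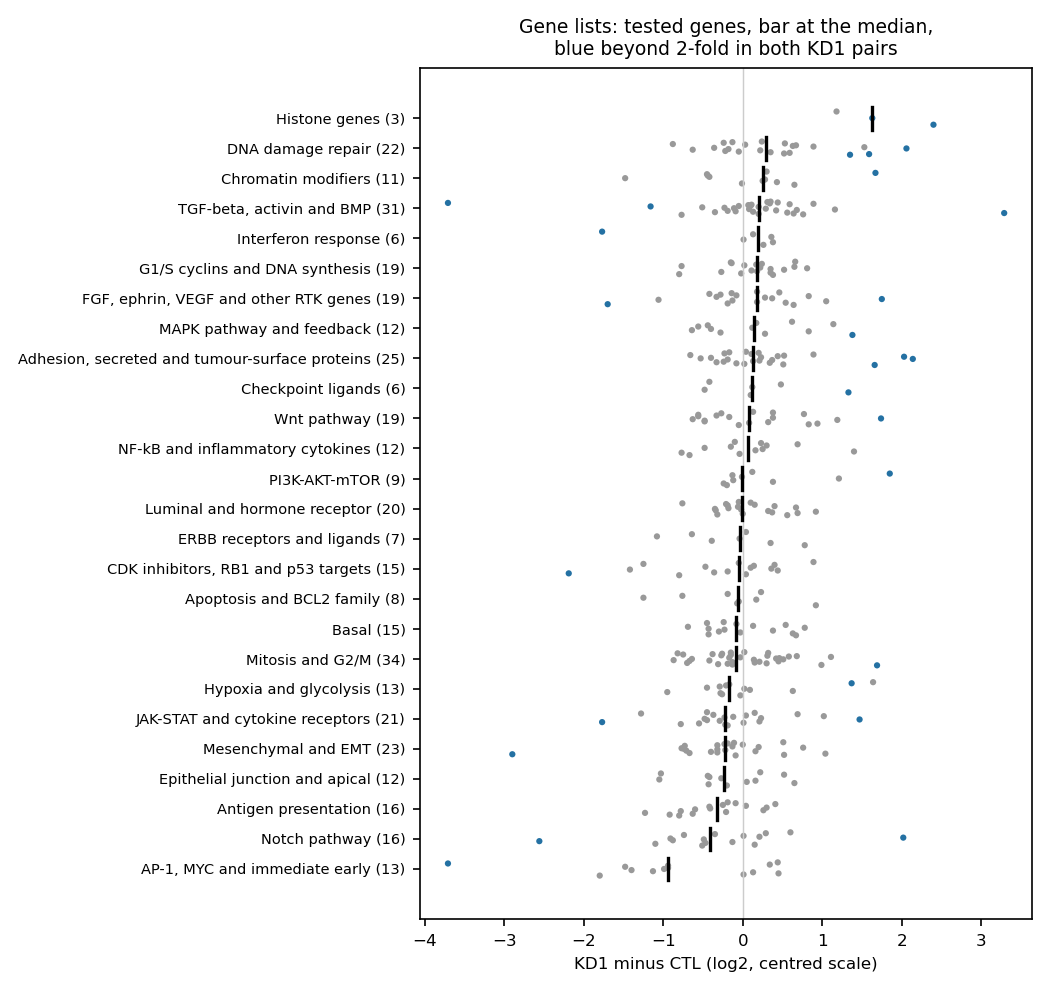
Differences of the tested genes of each list with at least 3 of them, as log2 of KD1 minus CTL on the centred scale, with the number tested in parentheses and a vertical bar at the list median. Blue points are genes beyond 2-fold in both KD1 pairs. The histone list has the highest median (1.63) and the list of AP-1, MYC and immediate early genes the lowest (-0.94).

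Several of the large negative differences came with lower levels in KD1 libraries 3 and 4 than in 1 and 2. ID2 had 8.46, 8.69, 8.94 and 8.84 in CTL and 6.79, 7.06, 4.35 and 3.66 in KD1. SNAI1, a repressor of epithelial genes, had 11.61, 11.64, 11.80 and 11.80 in CTL and 10.73, 10.67, 7.70 and 7.89 in KD1, a difference of -2.90 (SE 1.28, adjusted p = 0.215 in limma). CDKN1C, the CDK inhibitor p57, was at -2.19 (SE 0.991, adjusted p = 0.224). SOCS1, an inhibitor of JAK kinases, was at -1.77 and BAIAP3, which acts in vesicle release, at -1.72. In each of these 5 genes all KD1 libraries lay below all CTL libraries, with SEs of 0.579 to 1.28. CKB, brain-type creatine kinase, was lower by much the same amount in both pairs. It had 8.57, 8.73, 8.80 and 8.73 in CTL and 7.94, 7.91, 8.12 and 8.13 in KD1, a difference of -1.12 (SE 0.14), with an adjusted p in limma of 0.0506 on the centred and 0.0462 on the deposited scale. Of 15 tested CDK inhibitor and p53 target genes 4 separated upward and 6 downward. CDKN1A, the inhibitor p21, was at -0.80, while RB1 (0.36) and MDM2 (0.40), which degrades p53, were higher.

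Antigen presentation genes were lower on the centred scale. Of 16 tested, 1 separated upward and 8 downward, and the median was -0.33, which turned to 0.11 on the deposited scale. HLA-E, a class I molecule read by NK cell receptors, had 13.09, 13.10, 13.14 and 13.15 in CTL and 12.63, 12.64, 12.03 and 12.02 in KD1. The difference was -1.23 (SE 0.326, adjusted p = 0.0989 in limma). The classical class I gene HLA-B (-0.92) lay on the same side on both scales, and both genes were lower in libraries 3 and 4 than in 1 and 2. Class I genes are near-identical in sequence, and the panel's power to separate them was not tested. Of 6 interferon response genes 0 separated upward and 1, SOCS1, downward. IL4R, the interleukin 4 receptor, had 8.02, 8.01, 7.97 and 7.99 in CTL and 9.65, 9.68, 10.17 and 10.11 in KD1, a difference of 1.47 (SE 0.231, adjusted p = 0.0636 in limma). It was the highest of 21 tested cytokine receptor and JAK-STAT genes, of which 3 separated upward and 8 downward.

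Adhesion, secreted and mesenchymal genes included further large positive differences. F3, the tissue factor that starts coagulation, had 11.13, 11.18, 11.21 and 11.12 in CTL and 12.92, 12.88, 13.61 and 13.59 in KD1, a difference of 1.66 (SE 0.289, adjusted p = 0.0691 in limma). Of 25 tested genes for adhesion, secreted and surface proteins 9 separated upward and 5 downward, and HEG1 alone of them passed. PECAM1, an endothelial adhesion molecule, went from 3.61 to 4.42 in CTL to 5.33, 5.42, 7.65 and 7.60 in KD1 (2.14, SE 0.921, adjusted p = 0.208 in limma). Its CTL mean linear value was 17.3, under the floor of 20. Of 5 endothelial markers on the panel, 1 (PECAM1) was above 20 in all KD1 libraries and 0 in all CTL libraries. Their summed linear value, of which PECAM1 is a part, was 57.5 to 74.9 in CTL and 86 to 266 in KD1. Only PECAM1 and CDH5 exceeded 20 in any KD1 library. CDH5 had log2 levels of 3.19 to 3.89 in CTL and 4.15 to 4.68 in KD1. TEK had linear values of 6.9 to 13.8 in CTL and 4.25 to 18.2 in KD1. The sum thus does not stand for a rise of every marker. The part of other cells in these values was not tested. Of 23 mesenchymal and EMT genes 4 separated upward and 8 downward, with SNAI2 (1.04) and the N-cadherin gene CDH2 (0.52) higher and SNAI1 lower. Of 12 epithelial genes 2 separated upward and 6 downward, with OCLN (0.65) of tight junctions higher and ELF3 (-1.03), an epithelial transcription factor, lower. DKK1, a Wnt antagonist, was at 1.74 (SE 0.509, adjusted p = 0.113 in limma) and led 19 Wnt genes, of which 4 separated upward and 3 downward. EGLN3, an oxygen-sensing prolyl hydroxylase, was at 1.37 (SE 0.209, adjusted p = 0.0636) in a hypoxia and glycolysis list of 13 with 3 upward and 6 downward. The other lists also went both ways or had few separated genes: luminal 5 upward and 5 downward of 20, basal 2 and 4 of 15, NF-kB and inflammatory 1 and 2 of 12, BCL2 family 0 and 3 of 8, and checkpoint 1 and 1 of 6, with PDCD1LG2 the gene that rose. HSPA2 (-1.03) was the only tested gene of the autophagy and stress list.

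The KD1 pairs differed from each other in more genes than the CTL pairs did. By difference of pair means on the centred scale, 16 genes (2.57%) were more than 2-fold higher and 28 (4.5%) more than 2-fold lower in KD1 libraries 3 and 4 than in 1 and 2, against 3 genes (0.482%) either way in CTL. No test was made, since each side is a pair of near-repeats. FOS, an immediate early AP-1 factor, had 10.43 and 10.34 in KD1 libraries 1 and 2 and 5.38 and 5.29 in libraries 3 and 4, around CTL values of 8.73, 8.71, 9.76 and 9.69. KD1 was thus above CTL in 1 pair and far below it in the other, and the difference of -1.80 from CTL had an SE of 1.85. HES1, a repressor induced by Notch, behaved alike, at 12.22 and 12.25 against 9.14 and 9.16, with CTL at 10.64 to 11.68. GADD45B, a stress-induced gene, had 12.19 and 12.17 against 9.61 and 9.67, and the orphan nuclear receptor NR4A3 had 7.79 and 7.94 against 5.01 and 5.40. Pair differences were -5.12 for FOS, -3.16 for HES1, -3.00 for ID2, -2.98 for SNAI1, -2.74 for NR4A3 and -2.61 for GADD45B. In CTL the same genes differed by 0.94, 0.91, 0.25, 0.11, 1.56 and 0.20, in the other direction. JUN had 15.20 and 15.16 in libraries 1 and 2 and 13.62 and 13.58 in 3 and 4. KD2 was split in the same direction in these genes. Its pair differences were -2.58 for FOS, -2.22 for HES1, -2.48 for ID2, -2.68 for SNAI1, -2.06 for NR4A3 and -2.98 for GADD45B. In KD2, 29 genes (4.66%) were more than 2-fold higher and 38 (6.11%) more than 2-fold lower in libraries 3 and 4. KD2 libraries 3 and 4 were unlike each other in FOS, at 5.97 and 9.74, and in HES1, at 9.45 and 10.77. As a list, the 13 tested AP-1, MYC and immediate early genes had a median of -0.17 against CTL in libraries 1 and 2 and -1.61 in libraries 3 and 4. The labels give no difference of handling between the pairs.

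**Figure D4:**
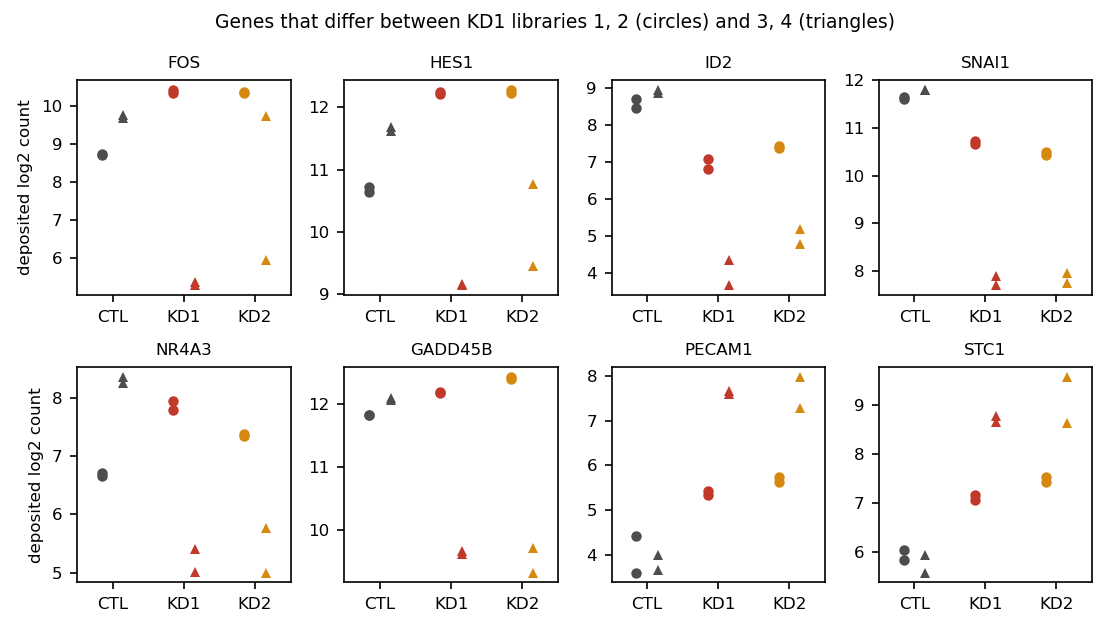
Deposited log2 counts of 8 genes in CTL, KD1 and KD2, with circles for libraries 1 and 2 and triangles for 3 and 4, each panel on its own vertical axis. The circles and triangles of KD1 are far apart, by -5.12 for FOS and 2.17 for PECAM1, and those of CTL are closer together.

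Against KD2 (4 libraries), KD1 differed in 1 gene of 622 by the same test (0% higher, 0.161% lower). VIM, the intermediate filament vimentin of mesenchymal cells, had 10.67, 10.69, 10.72 and 10.64 in CTL, 10.97 to 11.12 in KD1 and 12.94, 12.94, 13.05 and 12.38 in KD2. KD1 stood close to CTL and below every KD2 library, and KD1 minus KD2 was -1.80 (adjusted p = 0.0327 in limma). This call was lost without KD2 replicate 3 (-1.63, adjusted p = 0.318), with quantile normalization (0.109) and without an eBayes trend (0.0532). Against CTL, VIM in KD1 was at -0.09 on the centred and 0.34 on the deposited scale (adjusted p = 0.672 and 0.109 in limma), so its sign depends on the scale. The comparisons of KD1 and KD2 with CTL share the CTL libraries, and their values are given side by side. The differences from CTL in KD1 and KD2 were 2.03 and 1.39 for HEG1, 2.02 and 2.04 for MAML2, 1.33 and 1.09 for PDCD1LG2 and 1.06 for ADCY9 in both. They were 3.29 and 2.89 for INHBA, 2.40 and 2.36 for HIST1H1C, 2.06 and 1.89 for FANCF, -2.56 and -3.01 for DLL4 and -1.70 and -2.35 for FGFR3. None of these 9 genes passed the test of KD1 against KD2, which does not show that the lines are alike in them.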

How the data were processed

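Values are deposited as normalized log2 counts and, beside them, as a linear signal that the authors call normalized linear counts, per the file headers. The normalization, chemistry and software are not given in the sources used here. Every linear value of CTL, KD1 and KD2 was a whole multiple of 1 step per library within 0.05 (100% of values), from which counts were recovered. In each CTL library the log2 values lie a fixed amount (-0.132 to -0.176) from log2 of the linear ones, and in the knockdowns the amount is 0. A gene was tested when its linear signal exceeded 20 in at least 3 of 15 libraries (622 kept, 136 not).

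limma 3.58.1 in R 4.3.3 was fitted to CTL, KD1 and KD2 with libraries 1 and 2, and 3 and 4, averaged, on the deposited log2 values and on values centred by the median difference of each library from the gene means. KD2 libraries 3 and 4 were averaged like the rest although they were not near-repeats. The fit had 3 residual degrees of freedom, eBayes used a trend, and two-sided p-values were corrected over the 622 genes after Benjamini and Hochberg, with a threshold of 0.05. SE and differences are from the centred fit. edgeR 4.0.16 was run on recovered counts as an added alternative. Scripts were tested on simulated data in which the spread between pairs was the same in every group, unlike in these data.

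Members, lists and tests were chosen with earlier results of these data known. Named genes were to be those called with the largest changes, 5 each way against KD2, the 6 largest pair differences and list members. As few genes were called, others were named after their values were seen, and some genes are not reported here. Of 758 symbols 749 are current in RefSeq and 9 are older ones. Same-numbered libraries of CTL and KD1 did not deviate together (correlations of -0.11 to -0.21 across genes), so numbers do not pair them. Those of KD1 and KD2 did (0.59 to 0.76). The highest correlation with a KD2 library of another number was 0.55 to 0.78, so the number is not set apart from the pair. For KD1 against KD2 the block left the count of called genes at 1 with pairs averaged. With libraries separate the count was 49 without the block and 69 with it.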

Additional observations from a re-analysis of the deposited data

Results flagged for a closer look

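VIM differed between the HUNK lines, with KD1 minus KD2 at -1.80 by the test of the difference itself, while KD1 lay near CTL. The call was lost without KD2 replicate 3 (adjusted p = 0.318 in limma), with quantile normalization (0.109) and without an eBayes trend (0.0532).

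MAML2 in KD1 replicate 2, at a log2 level of 8.13, stood apart from the other KD1 libraries at 8.27 to 8.30. PDCD1LG2 in the same library, at 8.74, stood apart from 8.87 to 8.89. Both are small distances beside the differences from CTL, and both genes were still called without this library. Chance alone marks about 1 in 20 groups of 4 independent values in this way, and 112 groups of 4 libraries were examined. The libraries of a group form near-repeat pairs, so that rate need not hold for them.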

How the results depend on the processing

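HEG1 and MAML2 kept their direction and call under all alternatives run. PDCD1LG2 and ADCY9 kept their direction and lost their call with library medians (adjusted p = 0.0549 for both), quantile normalization (0.0502), CTL and KD1 alone (0.0581) and without CTL replicate 4 (0.0514), without KD2 replicates 1 (0.0535) and 3 (0.0754), and ADCY9 without CTL replicate 2 (0.0577), all in limma. The genes called higher and lower against CTL, 4 and 0, came to 141 and 32 with libraries counted separately, 77 and 7 with the HSL119 libraries in the fit, 136 and 4 on the deposited scale alone, 34 and 0 on log2 of linear plus 1, 35 and 1 on linear plus 10, 2 and 0 with library medians, 3 and 1 with quantile normalization, 5 and 1 above a floor of 50, and 2 and 0 with CTL and KD1 alone. With knockdown libraries 1 and 2 alone they were 166 and 42, and with 3 and 4 alone 212 and 82, the lone pair being assumed to vary like the CTL pairs. edgeR with libraries separate gave 142 and 136. Leaving out 1 replicate gave 2 to 8 and 0 to 1, with 2 higher without CTL replicate 4 or KD2 replicates 1 or 3, 8 without KD2 replicate 4, and 1 lower without CTL replicate 1, KD1 replicate 2 or KD2 replicates 2 or 4. Leaving out KD2 replicates was added after seeing the data, as was edgeR. With the replicate block, which the numbers do not justify for CTL and KD1, they were 14 and 3 with pairs averaged and 156 and 42 with libraries separate. KD1 against KD2 had 1 gene called. It had 49 with libraries separate, 69 with the replicate block and libraries separate, 54 and 94 with libraries 1 and 2 or 3 and 4 alone, 57 by edgeR on separate libraries, and 0 with quantile normalization or without a trend, and 0 to 1 on leaving out 1 replicate, with 0 without KD2 replicate 3. A fit of CTL and KD1 alone gives no value for it. The 27 genes 2-fold higher in both pairs came to 65 on the deposited scale, 47 on linear plus 1 and 62 with libraries 3 and 4 alone, and to 25 to 28 without 1 replicate. The 9 lower came to 3, 5 on linear plus 1, 4 on linear plus 10, 15 with library medians and 52 with libraries 3 and 4 alone, and to 9 to 10 without 1 replicate. VIM turned to 0.34 on the deposited scale and to 0.19 on both linear scales. FOS turned to 0.79 and HES1 to 0.69 with libraries 1 and 2 alone, and JUN to -0.37 with libraries 3 and 4 alone. Of 56 genes followed through the alternatives, 50 not called were called under at least 1 alternative. The causes were not tested, and n = 2 pairs a group limits all calls.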
